A study of Mus musculus with 58 samples.

Results

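The genes described here encode the membrane sector of the vacuolar proton pump, the V-ATPase, and its accessory proteins. Their 10 symbols are *Atp6v0a1*, *Atp6v0a2*, *Atp6v0b*, *Atp6v0c*, *Atp6v0d1*, *Atp6v0d2*, *Atp6v0e*, *Atp6v0e2*, *Atp6ap1* and *Atp6ap2*. They were listed by name, with earlier results of these data known, so the choice was not independent of the data. All were found among the 31246 genes listed for each brain region. Tissue for RNA-sequencing came from 2 cortical regions, entorhinal (EC) and primary visual (PVC), of male C57Bl/6 *APOE* targeted replacement mice aged 14-15 months. Each region had 29 libraries, 10 from *APOE3/3* and 19 from *APOE3/4* mice, giving 58 in all, and the same 29 mouse numbers occur in both regions. Every mouse, the *APOE3/3* controls included, carried human *APOE* under the mouse promoter in place of mouse *Apoe*, and the animals came from separate colonies. The study chose the EC as a region affected early in Alzheimer's disease and the PVC as one relatively spared.

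The V-ATPase uses ATP to pump protons into synaptic vesicles, endosomes, the Golgi apparatus and lysosomes, and it has a soluble V1 sector that splits ATP and a membrane V0 sector that carries the protons. In V0, a rotor ring of proteolipid subunits turns against subunit a while subunit d links the ring to the V1 stalk, and the small subunit e and the accessory proteins sit beside or inside the ring. In neurons the proton gradient drives the loading of neurotransmitter into vesicles, and acid in the endosomal and lysosomal compartments is needed for sorting and breakdown of their cargo.

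The values used were the mean normalized counts of each region, which are the authors' means over all 29 libraries of that region of read counts divided by a size factor for depth. The genotypes are pooled in them, so a contrast of *APOE3/4* with *APOE3/3* was not analysed here. One value per gene and region carries no spread between mice, so no test was made on them and every difference given is a description without an error. Depth per library is unknown from these values. The means summed to 49385488 over all genes in the EC against 27058393 in the PVC, and the regions were normalized separately. EC to PVC ratios were therefore divided by the median ratio of 1.857 over the 15642 genes with a mean of at least 10 in both regions, so that a ratio of 1 means no difference from the typical gene. Levels of different genes were compared per kilobase (kb) of exon, while mean counts not divided by length were used to set genes beside others with a like number of reads. Exon lengths came from a GENCODE annotation of NCBIM37 (mm9), the build to which the authors aligned the reads. The authors counted reads on a modified gene set of that build, limited to protein-coding genes. The exon bases they counted therefore need not match the lengths used here.

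Nearly the whole membrane sector was expressed at high levels in both regions, with one gene close to zero. Per kb of exon, 7 of the 10 genes lay at or above the 98th percentile of the 25187 genes with a length in both regions. *Atp6v0a2* was lower, at the 84.2 percentile in the EC against 84.6 in the PVC, and *Atp6v0e* lower again, at 71.5 and 72.6. *Atp6v0d2* was at the 15.5 percentile in the EC against 13.6 in the PVC. These percentiles also count genes with few or no reads: of all 31246 genes, 15642 had a mean of at least 10 in both regions. From high to low the order was *Atp6v0c*, *Atp6v0e2*, *Atp6ap1*, *Atp6v0d1*, *Atp6v0a1*, *Atp6ap2*, *Atp6v0b*, *Atp6v0a2*, *Atp6v0e* and *Atp6v0d2*, and it was the same in both regions. Without values of single mice, it cannot be said which neighbours in that order differ beyond their spread. The middle of the order depended on the length used: with the longest transcript or the coding length, *Atp6v0b* moved up to place 4 in the EC and place 3 in the PVC, and with coding length *Atp6v0e* stood above *Atp6v0a2*. Together the 10 genes made up 0.291% of the summed means in the EC against 0.272% in the PVC.

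**Figure D1:**
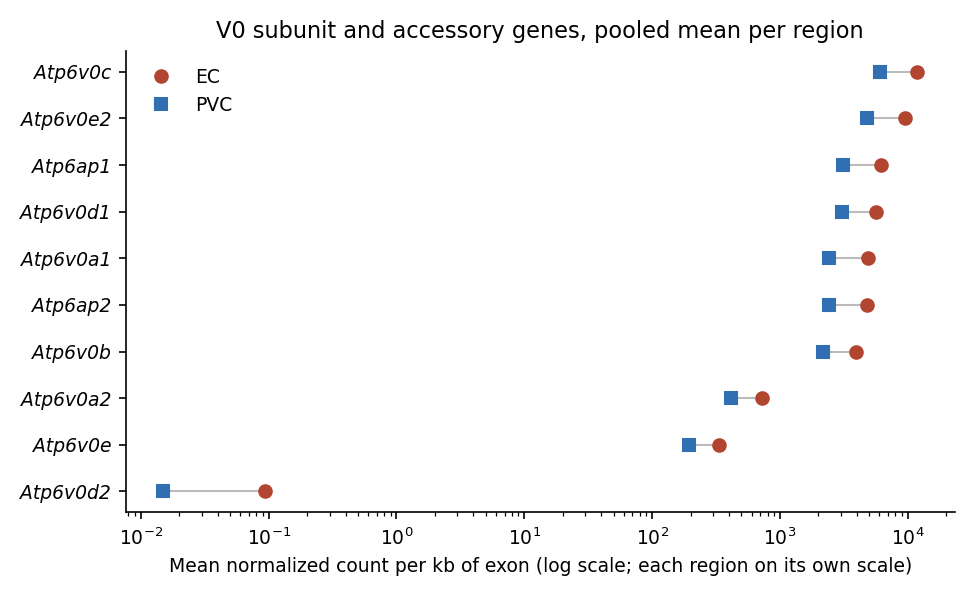
Mean normalized count per kb of exon (horizontal, log scale) for the 10 genes (vertical, ordered by level), with circles for the EC and squares for the PVC, each the authors' mean over 29 libraries and each region on its own scale. *Atp6v0c* and *Atp6v0e2* lead in both regions, 7 genes crowd between 2169 and 11814, and *Atp6v0d2* lies below 0.1 in both.

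Subunit a, which forms the proton path at the edge of the ring and holds the stator, was almost entirely represented by 2 of its 4 isoform genes. *Atp6v0a1*, the isoform best known from neurons and synaptic vesicles (chr11:100870766-100925033, plus strand), had a mean normalized count of 32106 in the EC against 15870.1 in the PVC, or 4911 and 2427 per kb. *Atp6v0a2*, known mainly from the Golgi apparatus and endosomes (chr5:125079673-125204824, plus strand), had means of 3846 and 2193, or 725 and 413.5 per kb. *Atp6v0a1* thus had 6.77 times the level of *Atp6v0a2* per kb in the EC against 5.87 times in the PVC, and 10.6 and 9.22 times when lengths came from the longest transcript. The other isoform genes, *Tcirg1* (a3, known from osteoclasts and lysosomes) and *Atp6v0a4* (known from kidney), had means of 828 and 9.62 in the EC and of 436 and 6.70 in the PVC. Of the summed per kb level of the 4 genes in the EC, *Atp6v0a1* made up 84.3%, *Atp6v0a2* 12.5%, *Tcirg1* 3.18% and *Atp6v0a4* 0.0332%. In the PVC the shares were 82.6%, 14.1%, 3.32% and 0.0458%, in the same order. The coding sequences of *Atp6v0a1* (839 codons) and *Atp6v0a2* (856 codons) were the same at 65.5% of aligned bases.

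Subunit d, which couples the ring to the central stalk of V1, was represented by *Atp6v0d1* alone to within a very small fraction. *Atp6v0d1* (chr8:108048365-108089947, minus strand) had a mean of 10149 in the EC against 5468 in the PVC, or 5660.1 and 3049.6 per kb. *Atp6v0d2* (chr4:19803988-19849752, minus strand), an isoform known from osteoclasts and kidney, had means of 0.252 and 0.0407. Multiplied by the 29 libraries these correspond to 7.32 normalized reads in the whole EC set and 1.18 in the whole PVC set. The PVC value was thus below the 3 counts over a region taken as the limit of detection, a mean of 0.103. Both means of *Atp6v0d2* were under the minimum of 10, so no EC to PVC ratio was formed. Its share of the summed d level per kb was 0.00164% in the EC against 0.000491% in the PVC. A few reads over 29 libraries do not separate a low level from none. The genes have coding sequences of nearly equal length, 351 and 350 codons, with 65.9% of aligned bases the same.

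The proteolipid ring, whose subunits carry the protons around, comes from *Atp6v0c* (subunit c) and *Atp6v0b* (subunit c″). *Atp6v0c* (chr17:24300833-24306647, minus strand) had the highest level of the 10 genes, with means of 39979.7 in the EC against 20498 in the PVC, or 11814 and 6057 per kb, at the 99.6 percentile in both. *Atp6v0b* (chr4:117556931-117559938, minus strand) had means of 8022 and 4449, or 3911 and 2169 per kb. The *Atp6v0c* level was 3.02 times that of *Atp6v0b* in the EC against 2.79 times in the PVC per kb of exon. With lengths of the longest transcript the factors were 1.94 and 1.79, and with coding lengths 6.59 and 6.09, so only the direction held under all 3 lengths. Of the exon bases of *Atp6v0b*, 243 (11.8%) are shared with *Gm12841* on the other strand, and the library kit did not mark strand.

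The *Atp6v0c* value is also uncertain because the mouse genome holds near-identical processed copies of this gene. Of its 6 annotated transcripts, 1 coding transcript of 1183 bases was searched against NCBIM37. The rest of the 3384 exon bases used for its level was not searched. The transcript matched an intron-free copy at chr6:37755975-37757091 over 1117 bases with 99.7% identity. It matched another at chr7:4363925-4365042 over 1121 alignment columns, gaps included, with 96.8% identity. Of the 1035 stretches of read length (149 bases) in the transcript, 750 (72.5%) were identical to the chromosome 6 copy, and none (0) to the chromosome 7 copy. How reads that match a gene and its copy were counted is not given in the sources used here, and the levels of the copies were not analysed here. The first 120 bases of the coding sequence, from NCBIM37 and read 5′ to 3′, are printed to show how little sets the copies apart, with capitals in the gene at positions where either copy differs and in each copy at its own differences.
Atp6v0c: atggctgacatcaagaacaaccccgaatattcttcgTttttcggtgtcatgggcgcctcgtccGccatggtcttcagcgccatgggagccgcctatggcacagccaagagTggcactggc
copy on chromosome 6: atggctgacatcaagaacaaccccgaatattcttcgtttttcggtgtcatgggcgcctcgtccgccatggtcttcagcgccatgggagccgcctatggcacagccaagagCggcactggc
copy on chromosome 7: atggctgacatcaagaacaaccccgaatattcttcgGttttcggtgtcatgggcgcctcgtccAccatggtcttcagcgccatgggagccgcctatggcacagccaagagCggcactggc
The chromosome 6 copy differs at 1 base and the chromosome 7 copy at 3. Of the other members, *Atp6ap2* had 1 short match at 97% identity or more, which wholly held 0.138% of its read-length stretches, and the remaining 8 had none. Below 97%, *Atp6v0e* had 35 matches elsewhere of at least read length, with identities up to 94.8% and lengths up to 171 bases.

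Subunit e, a small hydrophobic protein beside the ring, came mainly from *Atp6v0e2* and not from *Atp6v0e*. *Atp6v0e2* (chr6:48487568-48491797, plus strand) had means of 17351 in the EC against 8717 in the PVC, or 9471 and 4758 per kb, second to *Atp6v0c* in both regions. *Atp6v0e* (chr17:26813341-26836589, plus strand) had means of 1093 and 637, or 335 and 195 per kb. The per kb ratio of *Atp6v0e2* to *Atp6v0e* was 28.3 in the EC against 24.4 in the PVC, and 15.9 and 13.7 with coding lengths. *Atp6v0e2* accordingly made up 96.6% of the summed e level in the EC against 96.1% in the PVC. The genes encode proteins of equal length, 81 codons each, and their coding sequences, from the NCBIM37 annotation and read 5′ to 3′, are printed whole because they show 2 close genes that reads of this length can tell apart. Capitals mark the 75 of 246 bases at which they differ, 40 of them at the last position of a codon.
Atp6v0e: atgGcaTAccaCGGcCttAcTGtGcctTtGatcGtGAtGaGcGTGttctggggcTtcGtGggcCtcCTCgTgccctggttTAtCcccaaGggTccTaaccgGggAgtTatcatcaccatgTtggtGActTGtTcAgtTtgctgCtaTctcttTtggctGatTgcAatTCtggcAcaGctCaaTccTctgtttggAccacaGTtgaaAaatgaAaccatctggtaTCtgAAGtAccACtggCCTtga
Atp6v0e2: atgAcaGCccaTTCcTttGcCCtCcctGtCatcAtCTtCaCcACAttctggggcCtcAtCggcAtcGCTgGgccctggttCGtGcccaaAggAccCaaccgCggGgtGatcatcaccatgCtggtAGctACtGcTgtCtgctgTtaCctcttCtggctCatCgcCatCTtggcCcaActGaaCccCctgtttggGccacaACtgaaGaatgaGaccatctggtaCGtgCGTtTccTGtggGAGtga
The differences are spread over the whole coding sequence, with none of the 246 positions requiring a gap.

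**Figure D2:**
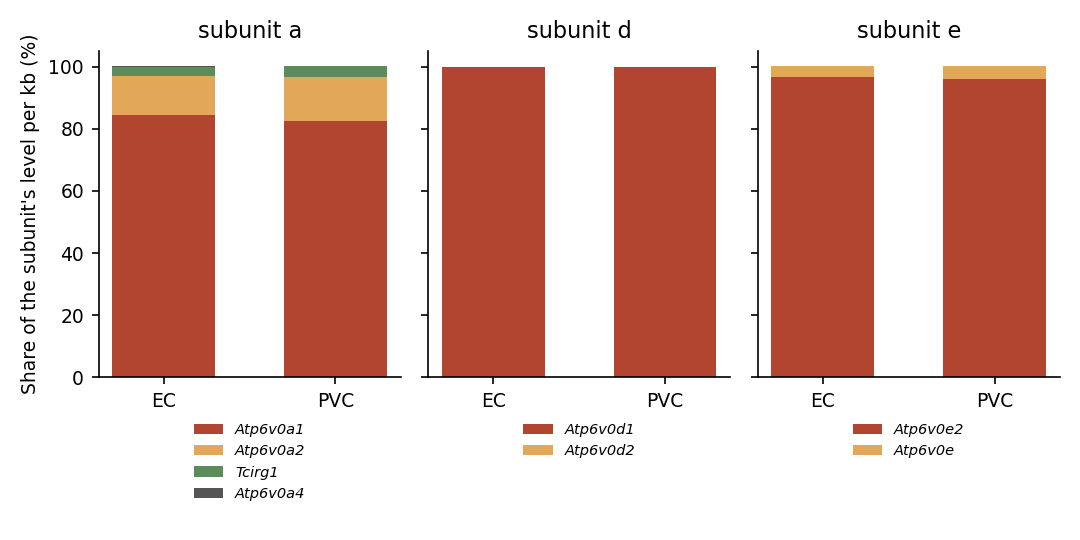
Share of each isoform gene (percent, vertical) in the summed level per kb of subunits a, d and e in the EC and the PVC, as stacked bars from 0 to 100. One gene dominates each subunit in both regions (*Atp6v0a1* 84.3% and 82.6%, *Atp6v0e2* 96.6% and 96.1%), and the *Atp6v0d2* share is too small to be seen.

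Both accessory genes were expressed at levels like those of the core subunits. *Atp6ap1* (X:71542436-71550060, plus strand), which encodes Ac45, a glycoprotein that takes part in assembly and targeting of the pump, had means of 18824 in the EC against 9436 in the PVC, or 6221 and 3118 per kb. *Atp6ap2* (X:12164927-12194175, plus strand), which encodes the prorenin receptor, a membrane protein also built into V0, had means of 12525 and 6314, or 4784 and 2412 per kb. The per kb ratio of *Atp6ap1* to *Atp6ap2* was 1.30 in the EC against 1.29 in the PVC, the least changed between regions of the pairs compared. Both genes lie on the X chromosome, and all mice were male.

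Set against *Atp6v0d1*, the members other than *Atp6v0d2*, whose counts are too few for such a ratio, had the values that follow in the EC and the PVC. Per kb, *Atp6v0c* was 2.09 times *Atp6v0d1* in the EC against 1.99 times in the PVC, *Atp6v0e2* 1.67 and 1.56 times and *Atp6ap1* 1.099 and 1.02 times. Below it, *Atp6v0a1* was 0.868 and 0.796 times *Atp6v0d1*, *Atp6ap2* 0.845 and 0.791 times and *Atp6v0b* 0.691 and 0.711 times. The lowest were *Atp6v0a2*, at 0.128 and 0.136 times, and *Atp6v0e*, at 0.0592 and 0.0640 times. These values are ratios of transcript levels, do not give the subunit stoichiometry of the protein complex, and for *Atp6v0c* rose to 8.92 and 8.49 with coding lengths.

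Between the regions the members differed little. Of the 9 genes above the minimum, 5 had scaled ratios above 1 (EC higher) and 4 below 1 (PVC higher), and in 0 of them was the higher region at least 25% above the lower one. Over all 15642 genes, 14.4% differed by at least 25% with the EC higher and 11.1% with the PVC higher, and the count over 9 genes is read no further than that. The median scaled ratio was 1.05 over the 9 genes, against 1 over all genes by construction. *Atp6v0a1* had the highest scaled ratio, 1.089 or 0.12 on the log2 scale, at the 70.6 percentile of all genes. It was followed by *Atp6ap1* (1.074), *Atp6v0e2* (1.072), *Atp6ap2* (1.068) and *Atp6v0c* (1.05). *Atp6v0d1* was at 0.9995, *Atp6v0b* at 0.971 and *Atp6v0a2* at 0.9445, and the lowest was *Atp6v0e* at 0.924 or -0.11 on the log2 scale, at the 29.1 percentile. All 9 fell between the 5th and 95th percentiles of all genes, at 0.655 and 1.63, and 41.5% of all genes had ratios inside the range the 9 spanned. Among the 7708 genes with a mean count in the EC at least that of *Atp6v0e*, 49.9% did, and 8.47% and 8% differed by at least 25% with the EC and the PVC higher. The side of *Atp6v0d1* depended on the scaling: with the regional totals, the upper quartiles or a minimum of 100 its ratio was 1.017, 1.014 or 1.012, and 6 members then had the EC higher.

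**Figure D3:**
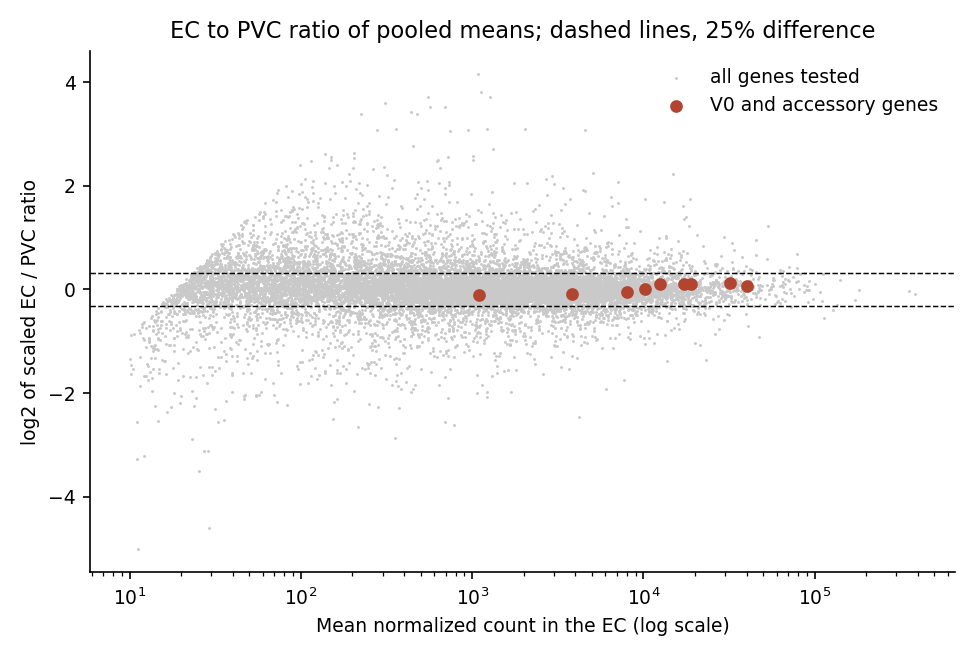
Scaled EC to PVC ratio (vertical, log2) against mean normalized count in the EC (horizontal, log scale) for the 15642 genes tested (grey) and the 9 members tested (large points), with dashed lines at a 25% difference in each direction. All 9 members lie between the lines, from 0.924 to 1.089 as ratios, and the ratio is below 1 at the 4 lowest mean counts and above 1 at the 5 highest.

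Within the set the ratio went with the mean count not divided by length, a split chosen for description after the values were seen, and per kb of exon it did not hold. The 5 genes with the EC higher were those with the 5 highest mean counts, from *Atp6ap2* (12525 in the EC) upward, and the 4 with the PVC higher had the 4 lowest, from *Atp6v0e* (1093) to *Atp6v0d1* (10149). Per kb, *Atp6v0d1* (5660.1 in the EC, ratio 0.9995) stood above *Atp6v0a1* (4911, ratio 1.089) and *Atp6ap2* (4784, ratio 1.068). Among all genes the same bands of mean count had median ratios of 1.004 over the 740 genes at or above *Atp6ap2* and 0.987 over the 6703 genes from *Atp6v0e* to *Atp6v0d1*. In the a and e pairs the lower-level isoform leaned toward the PVC: the *Atp6v0a1* to *Atp6v0a2* ratio was 1.15 times higher in the EC than in the PVC, and that of *Atp6v0e2* to *Atp6v0e* 1.16 times, values that depend on neither the scaling nor the gene lengths. The same comparison gave 1.08 for *Atp6v0c* to *Atp6v0b* and 1.01 for *Atp6ap1* to *Atp6ap2*. None of these differences has a replicate error, and whether they exceed the spread between mice was not tested.

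The V1 sector, which splits ATP and docks on V0, was described in the same way. Of its 13 genes listed 10 were above the minimum, 4 with the EC higher and 6 with the PVC higher, with a median scaled ratio of 0.969. One differed by at least 25%, *Atp6v1c2*, an isoform gene of the stator subunit C, with means of 220 in the EC against 28.6 in the PVC and a scaled ratio of 4.14. The lowest was *Atp6v1g1* (0.914), a gene for stator subunit G. The highest V1 level per kb was that of *Atp6v1e1*, with 11945.5 in the EC against 6906 in the PVC, beside 11814 and 6057 for *Atp6v0c*. The list of 4 assembly factor genes holds *Atp6ap1l*, which is named after *Atp6ap1* and is given no role here, besides genes whose products help build V0 in the endoplasmic reticulum. Their ratios ran from 0.734 for *Atp6ap1l*, the only one past the 25% difference, with the PVC higher, to 1.039 for *2610030H06Rik*, an older symbol of *Vma21*. Of the 6 genes listed as regulators of how V1 and V0 join or part, 5 had the EC higher and 1 differed by at least 25%. Their ratios ran from 0.996 (*Dmxl1*) to 1.404 (*Oxr1*), with a median of 1.17. Which of them favour joining and which parting was not examined, so the list is not read as acting in the same direction. Over all 15642 genes, 14.4% differed by at least 25% with the EC higher and 11.1% with the PVC higher. The counts past that difference in these short lists are therefore read no further.

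**Figure D4:**
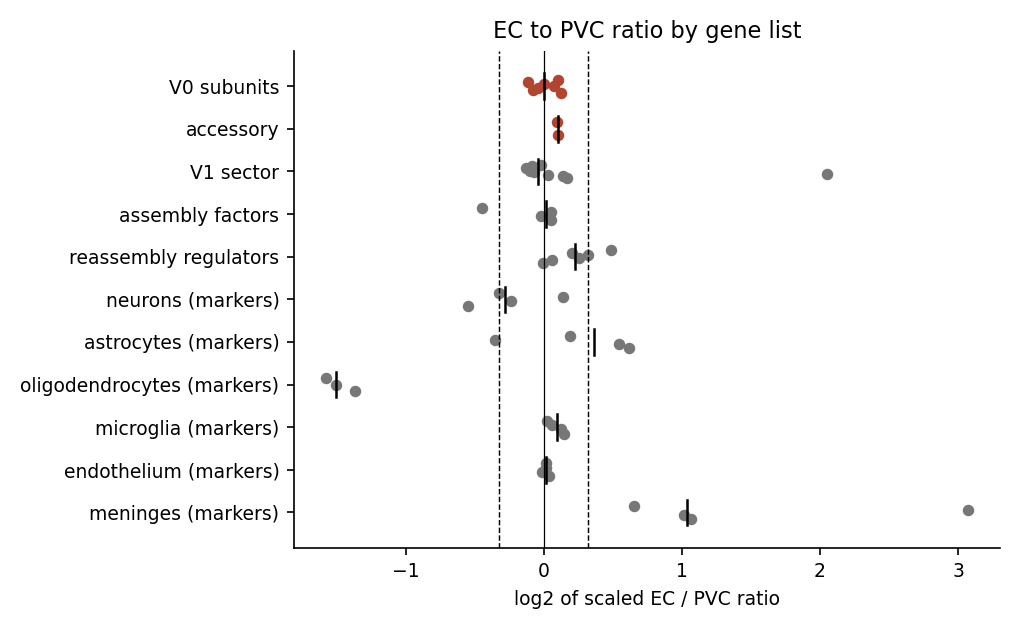
Scaled EC to PVC ratio (horizontal, log2) of each gene above the minimum in the V0 subunits, the accessory genes, their partner lists and marker lists of brain cell types (rows), with a vertical bar at each list's median and dashed lines at a 25% difference. The V0 and accessory genes sit between 0.924 and 1.089, whereas all 3 oligodendrocyte markers lie left of the lines and all 4 meningeal markers right of them. The microglial and endothelial markers lie between the lines.

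Some cell type markers differed between the dissected tissues by more than the members did, and others, such as the microglial and endothelial ones, about as little. The 3 oligodendrocyte markers (*Mbp*, *Mog*, *Mag*) had scaled ratios of 0.335 to 0.387, with a summed level per kb of 3642 in the EC against 5234 in the PVC before scaling. The 4 meningeal markers (*Col1a1*, *Col1a2*, *Dcn*, *Lum*) had ratios of 1.574 to 8.393 and summed levels of 2622 and 226.5. Most of both sums was *Dcn*, with 2348 and 151 per kb and the ratio of 8.393. The other meningeal markers had ratios of 1.574 to 2.089. Neuronal markers ranged from 0.684 (*Snap25*) to 1.1 (*Slc17a7*), astrocyte markers from 0.784 to 1.53, microglial markers from 1.016 to 1.108 and endothelial markers from 0.990 to 1.027. Of the hippocampal markers above the minimum, *C1ql2* was at 3.46 and *Prox1* at 0.841, while *Dsp* (means of 35.7 and 9.69) and *Tdo2* (28.3 and 9.59) were under the minimum in the PVC, with EC to PVC ratios before scaling of 3.69 and 2.95, both above the factor of 1.857. Of the choroid plexus markers *Ttr* was at 0.221 while *Kl* and *Clic6* were at 1.011 and 1.001. Among markers of osteoclasts and border macrophages, in which *Atp6v0d2* and *Tcirg1* can be high, *Mrc1* was at 2.34, *Cd163* at 1.67 and *Ctsk* at 0.991, and *Acp5* was under the minimum with means of 6.20 and 2.97. No listed marker was at 0 in either region. Their part in the ratios of the members was not tested, and in bulk tissue fewer cells of a type and less RNA per cell cannot be told apart.

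Promoter sequences were compared for what the members share besides function. RefSeq windows of 300 bases in the GRCm38.p6 build, from 250 before to 50 after an annotated start, were found for 8 of the 10 genes (10 windows), with no entry used for *Atp6v0a2* and *Atp6v0d2*. The letters TCACGTGA are the core of the CLEAR element bound by TFEB, a regulator of lysosomal genes. They occurred in *Atp6v0d1* and *Atp6v0e*, or 2 of the 10 windows, against 0.974% of all 32851 windows. The shorter E-box CACGTG, which lies inside TCACGTGA, occurred in those 2 genes and in *Atp6v0b*, or 3 of the 10 windows, against 7.15% of all windows. The matches are printed on the strand of the gene with the motif in capitals, since these letters are the ones that lysosomal genes are known for, at chr8:105566050-105566079 (minus), chr17:26676387-26676416 (plus), chr4:117887331-117887358 (minus) and chr4:117887349-117887376 (minus), in that order.
Atp6v0d1: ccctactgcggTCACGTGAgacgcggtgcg
Atp6v0e: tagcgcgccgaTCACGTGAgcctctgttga
Atp6v0b, near match: ggtcggcgcatCACGTGcgccggtcagg
Atp6v0b, far match: tgcgcgggggtCACGTGgggtcggcgca
The *Atp6v0d1* match begins 4 bases before the start, the *Atp6v0e* match 2 bases after it, and the *Atp6v0b* matches 18 and 36 bases before it. GGGCGG, the letters of a GC box, was searched on both strands and occurred in 7 of the 8 genes, all but *Atp6v0d1*. By window it occurred in 9 of the 10, against 35.7% of all windows. Neither TGACGTCA, the cyclic AMP response element, nor TATAAA was found in any of the 10 windows, against 1.79% and 13.6% of all windows. The GC content of the member windows ran from 45% (*Atp6v0a1*) to 67.3% (*Atp6v0c*), and 9 of the 10 exceeded the median of 52.7% over all windows. The genes with a TCACGTGA match, *Atp6v0d1* and *Atp6v0e*, had unlike levels, 5660.1 and 335 per kb in the EC, and a match of letters is a description and not evidence of binding.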

How the data were processed

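Libraries from 29 mice per region were analysed. Per the methods and the submitters' processing notes, the authors aligned reads of 149 bases to mm9 with TopHat2 2.0.6 and Bowtie2 2.0.2.0, counted them with HTSeq and compared genotypes with DESeq2 1.10.1. The authors deposited 1 table per region. The signal used is the mean normalized count that the authors computed before deposit: read counts scaled by DESeq2 size factors and averaged within each region. The other 5 columns hold the authors' genotype comparison (log2 fold change, standard error, statistic, *p*-value and adjusted *p*-value) and were not used. Some libraries were run more than once, 2 in the EC and 5 in the PVC. An NCBIM37 gene was found for 80.6% of symbols. Ratios were computed with Python 3.11.15, numpy 2.4.6 and pandas 2.3.3 and tested on simulated data, figures drawn with matplotlib 3.10.9, and copies sought with BLAST 2.17.0 and biopython 1.88. All 10 members are named, and other genes only from fixed lists (the other V0 isoforms, and otherwise the highest and lowest of each list and cell type markers). One marker is not reported here. The members and lists were chosen with earlier results of these data known. Alternatives were other scalings, minimums of 100 and none, a fold of 1.5 and other gene lengths.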

Additional observations from a re-analysis of the deposited data

How the results depend on the processing

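The count of members differing by at least 25% between regions was 0 with total scaling, upper quartile scaling and a minimum of 100, and the count at a fold of 1.5 was also 0. *Atp6v0d1*, at 0.9995, was on the EC side of 1 under the first 3 of these. Over all genes tested, 15.7% passed the 25% difference with the EC higher and 10.2% with the PVC higher under total scaling. With the upper quartiles the shares were 15.4% and 10.3%, and with a minimum of 100 they were 10.4% and 9.56%. At a fold of 1.5 the shares were 6.78% and 5.38%, so counts of 0 over 9 genes are read no further. The median EC to PVC ratio of the members, 1.05 as reported, was 1.069 with scaling by the totals, 1.065 by the upper quartiles, 1.063 with a minimum of 100 and 1.039 with no minimum. The last median is over 10 members, since *Atp6v0d2* enters it, and the others are over 9. With no minimum 1 member, *Atp6v0d2*, passed the 25% difference, on means that amount to 7.32 and 1.18 normalized reads. Over all genes tested with no minimum, 23.7% passed it with the EC higher and 17.8% with the PVC higher. Levels relative to another gene moved with the length used. With the longest transcript and with coding length respectively, *Atp6v0c* over *Atp6v0d1* was 2.50 and 8.92 in the EC and 2.38 and 8.49 in the PVC, *Atp6v0a1* to *Atp6v0a2* was 10.6 and 8.52 in the EC and 9.22 and 7.38 in the PVC, *Atp6v0e2* to *Atp6v0e* was 24.4 and 15.9 in the EC and 21.0 and 13.7 in the PVC, *Atp6v0c* to *Atp6v0b* was 1.94 and 6.59 in the EC and 1.79 and 6.09 in the PVC, and *Atp6ap1* to *Atp6ap2* was 1.60 and 1.14 in the EC and 1.59 and 1.13 in the PVC. No paired analysis was possible because only means pooled over all mice of a region were used. Leaving out single mice could not be done for the same reason, and the depth of single libraries sets no limit that could be computed here.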
